A study of Mus musculus with 8 samples.

Results

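The genes described here encode the proteins of the cytosolic ribosome. They were taken by gene symbol, as the rows named *Rpl*, *Rps*, *Rplp* or *Rpsa* with the usual numbering, and kept where the counts summed over the samples reached 80. The pattern matched 82 of the 39089 rows, and 77 rows were kept: 43 for proteins of the large subunit, 31 for proteins of the small subunit and 3 for the stalk of the large subunit. Of the 5 rows left out, *Rpl10l* and *Rpl39l* had 0 counts, *Rps4l* had 5, *Rpl32l* had 23 and *Rpl3l*, just outside the limit, had 64. The lowest gene inside it, *Rpl29*, had 3409. The 77 genes all passed the filter on low counts that left 13921 genes for testing, so none of them was lost to it.

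The samples were EpCAM+ CD45- cells sorted from tumors grown under the skin of male FVB mice from Myc-CaP, a prostate cancer cell line of mouse origin in which a *MYC* transgene is the driver. The mice were aged 6 weeks at inoculation. The injected cells were either empty-vector controls (WT) or cells edited with an *Arid1a* guide (*Arid1a* KO), and from day 16 the mice received JSH-23, a compound that keeps the NF-κB protein p65 out of the nucleus, or vehicle by daily gavage for 2 weeks. JSH-23 was dissolved in DMSO and diluted in corn oil. Corn oil is given as the control, while the study's figure legend for these grafts names the control arms DMSO. The 4 groups (WT with vehicle, WT with JSH-23, *Arid1a* KO with vehicle, *Arid1a* KO with JSH-23) had 2 samples each, and all groups share the cell line, its transgene and the host strain, so that the results concern 1 line grafted outside the prostate. Neither the labels nor the methods say whether the 2 samples of a group came from separate tumors, or whether the *Arid1a* KO cells were a clone or a pool.

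Total counts were between 16401581 and 21972231 per sample. *Arid1a* was at 156 and 161 CPM (counts scaled to the same library total, with a correction for composition) in WT with vehicle and at 103 and 106 CPM in *Arid1a* KO with vehicle. With JSH-23 it was at 144 and 155 CPM in WT and at 93.8 and 95.9 CPM in *Arid1a* KO, with the *Arid1a* KO samples all under the WT samples (log2 fold change -0.60 with vehicle, SE 0.036, and -0.66 with JSH-23, SE 0.037), while transcript remained. Against the sort, the defining epithelial genes were nearly absent: *Epcam* had between 0 and 4 counts per sample, and *Cdh1*, *Krt18* and *Cldn7* were each under 1 CPM in every sample. *Krt8* was at 32.8 to 113 CPM and *Krt19* at 11.6 to 104 CPM, both higher in *Arid1a* KO than in WT samples and lower with JSH-23. The 9 leukocyte markers summed to 9.56 to 23.02 CPM, the 7 fibroblast markers to 39.8 to 67.6 CPM (lowest in *Arid1a* KO with JSH-23) and the 5 endothelial markers to at most 3.36 CPM. The part of these differences in the results was not tested, and in such bulk samples fewer cells of a type and less RNA per cell cannot be told apart.

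Ribosomal proteins are made in step with each other, because each cytosolic ribosome carries a single copy of nearly all of them, and only the stalk proteins P1 and P2 are present as more than 1 copy. Their mRNAs are short and among the most abundant of a growing cell. They start with a run of pyrimidines, the 5′ terminal oligopyrimidine (TOP) motif, through which mTOR and the RNA-binding protein LARP1 control their translation, and MYC is a known activator of their transcription.

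The annotated starts show this motif for part of the genes. In the RefSeq promoter table for GRCm38.p6, 57 of the 77 genes had an entry by symbol. A C at the first transcribed base followed by at least 4 further C or T, read on the transcribed strand only, was found at a start of 13 of these 57 genes (22.8%), against 3.01% of the 27025 genes in the table. With the tract allowed to begin within 10 bases of the annotated start, the shares were 54.4% and 26.8%. Away from the annotated start itself, a C opened such a tract only where the base before it was neither C nor T. For the 10944 other genes tested that had an entry, the shares were 3.04% at the start and 30.1% within 10 bases. The windows below hold 15 bases before and 15 bases from the start for genes whose levels are given later, and capitals mark the tract. The first 5 genes have it at the annotated start.
*Rps6*, chr4:86857353-86857382, minus strand: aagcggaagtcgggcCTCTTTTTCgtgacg
*Rps27*, chr3:90213634-90213663, minus strand: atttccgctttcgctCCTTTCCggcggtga
*Rpl38*, chr11:114668565-114668594, plus strand: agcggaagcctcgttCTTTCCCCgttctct
*Rplp2*, chr7:141447636-141447665, plus strand: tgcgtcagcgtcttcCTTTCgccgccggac
*Rpl35a*, chr16:33056467-33056496, plus strand: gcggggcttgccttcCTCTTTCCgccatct
*Rpl11*, chr4:136053379-136053408, minus strand: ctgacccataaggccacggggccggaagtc
*Rpl5*, chr5:107900513-107900542, plus strand: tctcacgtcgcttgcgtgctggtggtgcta
*Rpl22*, chr4:152324421-152324450, plus strand: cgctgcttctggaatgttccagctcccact
*Rpl35a* is listed with 3 starts and *Rpl22* with 2, of which the one shown carries the tract for *Rpl35a* and begins the gene for *Rpl22*. Windows without capitals show only that these letters are not at the annotated start.

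Per length, the 77 genes spanned a wide range of levels. The deposited TPM, a count divided by the gene's length and scaled to the same sum in each sample, had a median of 2687 over the genes (mean of 8 samples each), with *Rplp1* highest at 10303 TPM, *Rplp0* next at 8129 TPM and *Rpl23a* at 7798 TPM. *Rplp1* and *Rplp0* encode stalk proteins, which recruit translation factors to the ribosome. *Rplp1* was at 9534 and 9567 TPM in WT with vehicle, 10010 and 9915 with JSH-23, 10504 and 10620 in *Arid1a* KO with vehicle and 11124 and 11151 with JSH-23. The groups did not overlap and rose in that order.

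The lowest levels were those of *Rpl29* (32.9 TPM), *Rps27l* (51.7 TPM) and *Rpl34* (142 TPM). *Rps27l* is a p53-induced paralog of *Rps27*, which was at 1490 TPM. For some of the low genes the table holds a copy with more counts: *Rps18* had 1692 to 3204 counts per sample and its pseudogene row *Rps18-ps4* had 15083 to 24034, and *Rpl34* had 532 to 1148 while *Rpl34-ps1* had 6783 to 11343. Reads of such near-identical sequences can be placed on either copy, so the levels of these genes are uncertain. The length column also differs between genes of similar coding size, from 390 to 5136 bases, and a long value such as that of *Rps15a* (5136 bases) lowers its TPM.

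**Figure D1:**
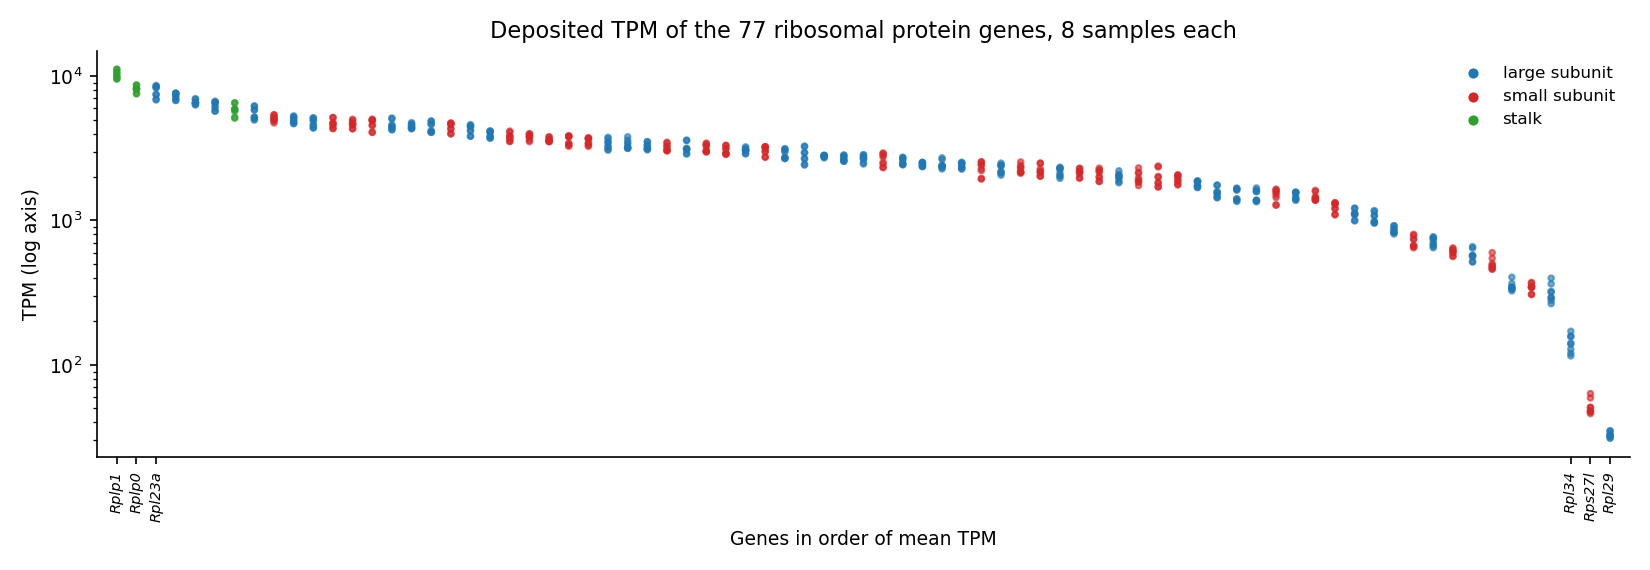
Deposited TPM (log axis) of each of the 77 genes in the 8 samples, 1 point per sample, in order of the mean TPM along the horizontal axis and coloured by large subunit, small subunit or stalk, with the 3 highest and the 3 lowest genes named. The levels run from 32.9 TPM for *Rpl29* to 10303 TPM for *Rplp1*, and the samples of a gene lie close together beside the spread between genes.

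Together the 77 genes took 7.51% and 7.48% of all counts in WT with vehicle and 8.17% in both WT samples with JSH-23. In *Arid1a* KO they took 8.004% and 7.97% with vehicle and 9.45% and 9.49% with JSH-23. The groups did not overlap, and *Arid1a* KO with JSH-23 stood 1.19-fold above *Arid1a* KO with vehicle and 1.16-fold above WT with JSH-23. The corresponding ratios were 1.09 for JSH-23 in WT and 1.07 for *Arid1a* KO against WT with vehicle. With 2 samples a group an exact permutation test cannot go below a two-sided p of 0.333, so the shares are given without a test.

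The order of the groups was the same for summed TPM, with 21.5% in both WT samples with vehicle, 22.9% in both with JSH-23, 22.6% and 22.5% in *Arid1a* KO with vehicle and 24.5% and 24.6% with JSH-23. The ratio of large-subunit to small-subunit counts stayed between 1.599 and 1.633 in all samples. The subunits therefore moved by nearly the same factor, with the large subunit at 4.22 ± 0.0229% and 5.30 ± 0.00730% (SD, n = 2) in WT with vehicle and *Arid1a* KO with JSH-23, and the small subunit at 2.59% in both WT samples with vehicle and at 3.28 ± 0.0164% in *Arid1a* KO with JSH-23.

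**Figure D2:**
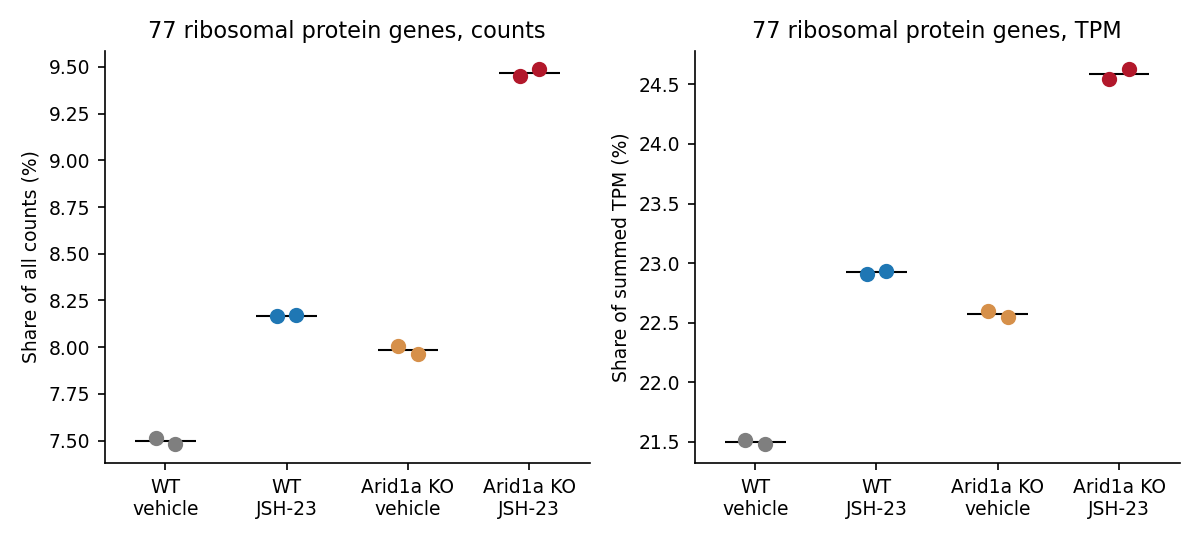
Share of all counts (left) and of summed TPM (right) taken by the 77 genes, in percent, with 1 point per sample, a line at the mean of each group's 2 samples and axes that do not start at 0. *Arid1a* KO with JSH-23 lies highest on both scales, at 9.45% and 9.49% of counts, and WT with vehicle lowest.

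JSH-23 was followed by higher levels of nearly all ribosomal protein genes in *Arid1a* KO tumors. Of the 77 genes, 76 rose and 0 fell relative to vehicle at an adjusted p under 0.05 (edgeR, quasi-likelihood, adjusted by Benjamini-Hochberg over the 13921 genes), against 33.4% of all genes tested that rose and 34.4% that fell. No gene of the 77 fell at an unadjusted p under 0.05, and DESeq2 also gave 76 and 0. The changes were small: the median log2 fold change was 0.37 (1.29-fold), with values between 0.04 and 0.73, beside -0.02 over all genes tested. On the log2(TPM + 1) scale limma gave 64 higher and 1 lower, with a median of 0.13. The large subunit and the small subunit each had a median of 0.37, and the 3 stalk genes had one of 0.32. By the criterion of a 1.5-fold change and an unadjusted p under 0.05, only 2 of the 77 were called, where 26.7% of all genes were.

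*Rpl35a* and *Rps27a* were the 2 genes past 1.5-fold. *Rpl35a*, which encodes a large-subunit protein and lies on chromosome 16 from 33056453 to 33060189 (GRCm38), was at 66.0 and 62.6 CPM in *Arid1a* KO with vehicle, and JSH-23 samples were at 101 and 112 CPM. In WT its levels were 69.7 and 69.0 CPM with vehicle and 77.7 and 78.9 CPM with the compound. The JSH-23 samples were above the vehicle samples in both genotypes, which the rule for naming the gene required in *Arid1a* KO. The log2 fold changes were 0.73 in *Arid1a* KO (SE 0.045, adjusted p = 1.2e-23) and 0.18 in WT (SE 0.049, adjusted p = 0.00163). *Rpl35a* was among the lower genes, with 1173 to 2325 counts per sample and a mean of 317 TPM beside the median of 2687 TPM. Whether its reads were shared with copies under other names was not tested.

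*Rps27a* encodes a small-subunit protein made as a fusion with ubiquitin, and lies on chromosome 11 from 29545842 to 29548040. It was at 554 and 553 CPM in *Arid1a* KO with vehicle, rising to 907 and 901 CPM with JSH-23, against 601 and 587 CPM and then 675 and 668 CPM in WT. Again no vehicle sample reached a JSH-23 sample, in *Arid1a* KO by the same rule for naming. The log2 fold changes were 0.71 in *Arid1a* KO (SE 0.018, adjusted p = 1.35e-45) and 0.18 in WT (SE 0.018, adjusted p = 4.76e-13).

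In WT tumors the rise with JSH-23 was smaller. Here 70 of the 77 genes rose and 1 fell, against 28.6% and 27.2% of all genes tested, with a median log2 fold change of 0.14 (1.10-fold) beside -0.01 over all genes. The 1.5-fold criterion called 0 of the 77 by edgeR's test and by DESeq2 (71 were higher and 1 lower at an unadjusted p under 0.05), against 16.9% of all genes. The largest rises were those of *Rpl34* (31.6 and 32.9 CPM with vehicle, 39.8 and 44.2 CPM with JSH-23, log2 fold change 0.38, SE 0.070, or 0.15 with the counts of its more abundant copy *Rpl34-ps1* added), *Rps27* (0.24, SE 0.024) and *Rpl5* (0.23, SE 0.015). The 6 genes that did not pass the test were *Rpl13a* (-0.02), *Rpl38* and *Rpl36* (both 0.02), *Rps29* (0.04), *Rpl29* (0.05) and *Rps27l* (0.13, adjusted p = 0.0508).

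*Rpl22* stood apart from the others. The protein is a large-subunit component that also binds RNA outside the ribosome, and its gene lies on chromosome 4 from 152324436 to 152334082. It was at 568 and 563 CPM in WT with vehicle and at 527 CPM in both samples with JSH-23, the single fall among the 77 (log2 fold change -0.10, SE 0.020, adjusted p = 7.06e-06). In *Arid1a* KO its levels were 650 and 634 CPM with vehicle and 651 and 667 CPM with the compound, which did not overlap but did not pass the test (0.04, SE 0.019, adjusted p = 0.0598), and the log2 fold change was -0.0747 when only the library size was used for scaling and -0.20 on the log2(TPM + 1) scale. Its paralog *Rpl22l1*, which is no member of the 77, was higher with JSH-23 in both genotypes, going from 76.3 ± 1.39 to 101 ± 0.730 CPM in WT and from 65.2 ± 0.953 to 109 ± 0.651 CPM in *Arid1a* KO (SD, n = 2), with log2 fold changes of 0.40 (SE 0.043) and 0.74 (SE 0.041).

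**Figure D3:**
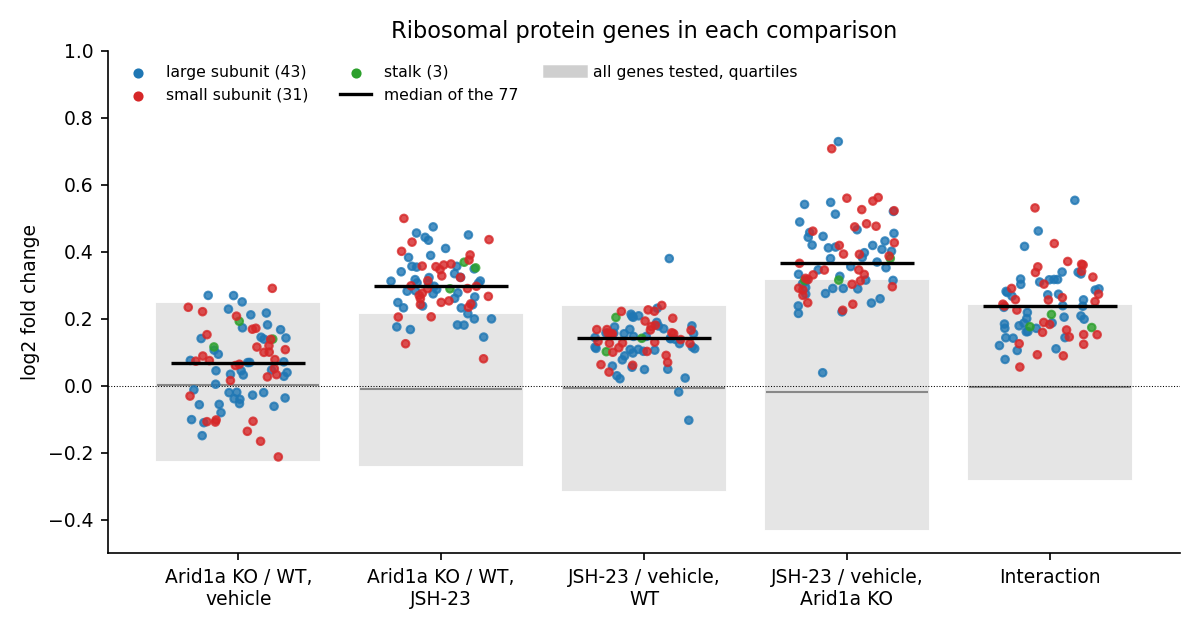
Log2 fold change of each of the 77 genes (points, coloured by subunit) in the 4 pairwise comparisons and the interaction, with the median of the 77 as a black line and the quartiles and median of all genes tested in grey. The points lie around 0.37 for JSH-23 in *Arid1a* KO and around 0.30 for the genotypes under JSH-23, and spread to both sides of 0 only for *Arid1a* KO against WT with vehicle and, by 2 points, for JSH-23 in WT.

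With vehicle, *Arid1a* KO and WT tumors differed in both directions. Of the 77 genes, 42 were higher and 15 lower in *Arid1a* KO, against 25.0% and 25.5% of all genes tested, and 20 did not pass the test. The median log2 fold change was 0.07 (0.04 for the large subunit, 0.08 for the small subunit and 0.14 for the stalk), beside 0.00 over all genes, with values from -0.21 to 0.29. None was called by the 1.5-fold criterion in edgeR's test or in DESeq2 (44 were higher and 18 lower at an unadjusted p under 0.05), against 13.9% of all genes.

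The largest differences downward were those of *Rps6*, *Rps26* and *Rpl11*. *Rps6*, the S6 kinase substrate of the small subunit, on chromosome 4 from 86854099 to 86857367, was at 1224 and 1256 CPM in WT and at 1064 and 1076 CPM in *Arid1a* KO (log2 fold change -0.21, SE 0.015, adjusted p = 3.94e-20). *Rps26* was at 802 and 817 CPM in WT and at 720 and 722 CPM in *Arid1a* KO (-0.17, SE 0.017). *Rpl11*, which with *Rpl5* forms the 5S particle that binds the p53 regulator Mdm2, was at 692 and 697 CPM in WT and at 623 and 629 CPM in *Arid1a* KO (-0.15, SE 0.018). Both *Arid1a* KO samples were below both WT samples for these 3 genes, as the rule for naming them required. Its partner *Rpl5* was slightly higher in *Arid1a* KO, at 1767 and 1729 CPM against 1727 and 1661 CPM (0.04, SE 0.015, adjusted p = 0.00943).

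The largest differences upward were those of *Rps27*, *Rpl27* and *Rpl23a*. *Rps27*, a small-subunit gene on chromosome 3 from 90212667 to 90213648, was at 293 and 291 CPM in WT and at 361 and 353 CPM in *Arid1a* KO (log2 fold change 0.29, SE 0.024, adjusted p = 3.11e-17). *Rpl27* was at 714 and 703 CPM in WT and at 855 and 853 CPM in *Arid1a* KO (0.27, SE 0.017), and *Rpl23a* was 0.27 higher (SE 0.014). The 3 stalk genes were also higher, *Rplp2* by 0.19 (SE 0.016), *Rplp1* by 0.14 (SE 0.013) and *Rplp0* by 0.12 (SE 0.011). No WT sample reached an *Arid1a* KO sample for any of these 6 genes, which the rule for naming required of *Rps27*, *Rpl27* and *Rpl23a*.

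With JSH-23 the 77 genes were all higher in *Arid1a* KO than in WT tumors, against 23.2% of all genes tested, and 0 were lower, against 23.8%. No gene of the 77 was lower at an unadjusted p under 0.05, and DESeq2 gave 77 and 0. Limma on log2(TPM + 1) gave 60 higher and 2 lower, with a median of 0.11 beside -0.16 over all genes. In edgeR's fit the median log2 fold change was 0.30 (1.23-fold) beside -0.01 over all genes, with values from 0.08 for *Rps23* to 0.50 for *Rps27l*. The 1.5-fold criterion called 0 of the 77 in edgeR's test and in DESeq2, against 9.94% of all genes. *Rps27l* was at 56.8 and 54.1 CPM in WT and at 75.2 and 81.4 CPM in *Arid1a* KO (SE 0.051, adjusted p = 2.82e-13). *Rpl27* was at 798 and 806 CPM in WT and at 1113 and 1114 CPM in *Arid1a* KO (0.47, SE 0.016), and *Rpl38* at 349 and 356 CPM and at 467 and 499 CPM (0.46, SE 0.023). *Arid1a* KO samples were above WT samples for each of the 3 genes, as the rule for naming them required. *Rps6*, at 1443 and 1449 CPM in WT and 1568 and 1587 CPM in *Arid1a* KO, was 0.13 higher (SE 0.015, adjusted p = 2.95e-11) but lower on the log2(TPM + 1) scale (-0.0657), where *Rpl10* (-0.0463) and *Rpl3* (-0.0101) also changed sign.

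**Figure D4:**
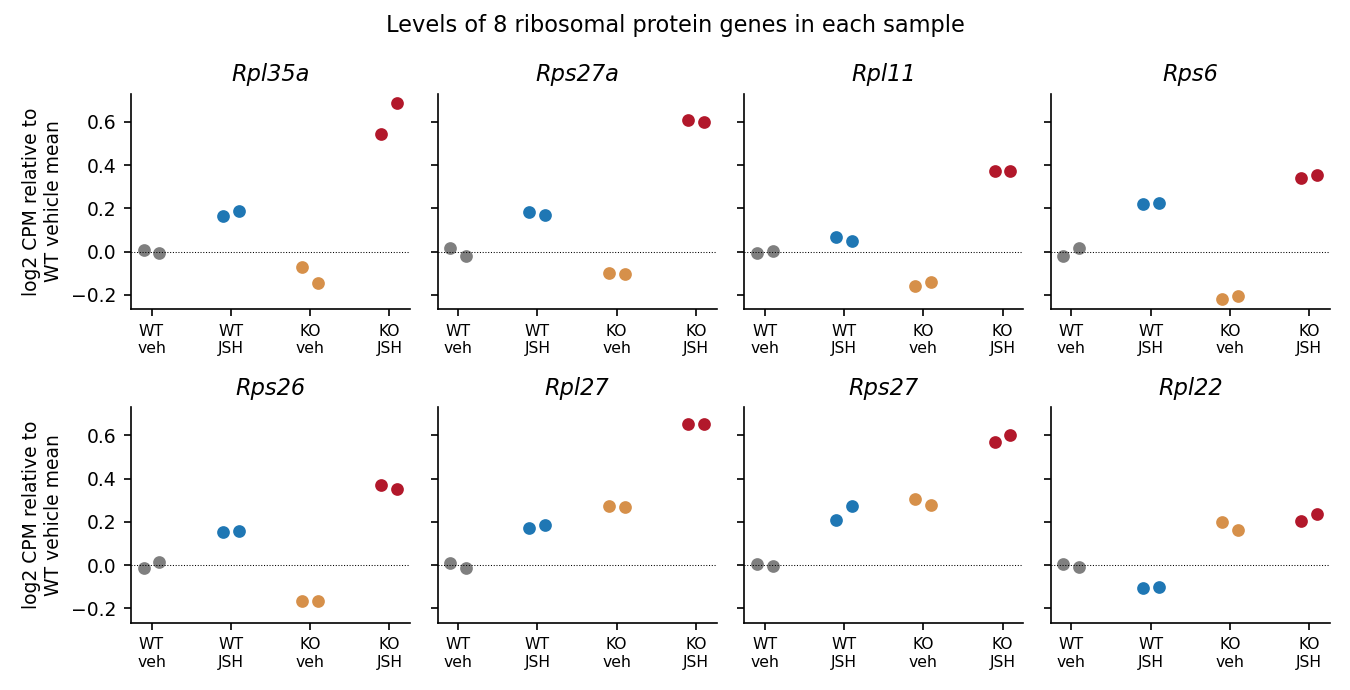
Levels of 8 ribosomal protein genes in the 8 samples, as log2 CPM relative to the mean of the 2 WT samples with vehicle (dotted line at 0), with 1 point per sample and veh for vehicle. For *Rpl35a*, *Rps27a*, *Rpl11*, *Rps6* and *Rps26* the *Arid1a* KO samples with vehicle are lowest and those with JSH-23 highest, whereas *Rpl22* is lowest in WT with JSH-23.

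The response to JSH-23 differed between the genotypes for most of the genes. The interaction, the log2 fold change with JSH-23 in *Arid1a* KO minus that in WT, was positive at an adjusted p under 0.05 for 74 of the 77 genes and negative for 0, against 20.5% and 17.9% of all genes tested, with a median of 0.24 (beside -0.00 over all genes). None was negative at an unadjusted p under 0.05, and DESeq2 gave 73 and 0, but limma on log2(TPM + 1) gave 25 positive and 9 negative, with a median of 0.04. On that scale the median over all genes was -0.17, so that the 77 genes stood 0.21 above it, against 0.24 on the count scale, and with library size alone the median of the 77 was 0.13. The 1.5-fold criterion called 0 of the 77 in edgeR's test and in DESeq2 (75 were positive at an unadjusted p under 0.05), against 10.9% of all genes.

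The interaction was largest for *Rpl35a* (0.55, SE 0.066, adjusted p = 1.26e-10), *Rps27a* (0.53, SE 0.026, adjusted p = 2.84e-28) and *Rpl11* (0.46, SE 0.025, adjusted p = 6.07e-26). *Rpl11* was at 727 and 719 CPM in WT with JSH-23 and at 898 CPM in each of the *Arid1a* KO samples given it, a rise over vehicle of 0.06 (SE 0.018) in WT and 0.52 (SE 0.017) in *Arid1a* KO. These 3 genes were all lower in *Arid1a* KO than in WT with vehicle, a difference that passed the test for *Rps27a* (-0.10, SE 0.019) and *Rpl11* but not for *Rpl35a* (-0.11, adjusted p = 0.0564). The 3 genes that did not pass were *Rps27* (0.06, adjusted p = 0.186), *Rpl34* (0.16, adjusted p = 0.174, but 0.18 and adjusted p = 1.83e-07 with the counts of *Rpl34-ps1* added) and *Rpl29* (0.28, adjusted p = 0.052). *Rps27*, at 337 and 352 CPM in WT and 433 and 443 CPM in *Arid1a* KO with JSH-23, rose by nearly the same factor in both genotypes (0.24 and 0.30), and its interaction was -0.0476 with library size alone and -0.14 on the log2(TPM + 1) scale.

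The 5 comparisons draw on the same 8 samples, so the values of a gene in them are not independent. Genes of other known roles are given here by their levels. *Rpsa*, the laminin receptor precursor of the small subunit, was at 2406 and 2444 CPM in WT with vehicle, 2585 and 2613 with JSH-23, 2714 and 2748 in *Arid1a* KO with vehicle and 3173 and 3212 with JSH-23, with no overlap between groups. The X-linked *Rpl10*, which completes the large subunit late in its assembly, was at 1539 and 1517 CPM, 1689 and 1719, 1466 and 1478, and 1850 and 1918 in the same order of groups. *Rps14*, at 1026 and 1017, 1114 and 1134, 1124 and 1090, and 1364 and 1400 CPM, overlapped between WT with JSH-23 and *Arid1a* KO with vehicle only. The X-linked *Rps4x* and *Rpl39* rose with JSH-23 by 0.16 and 0.13 in WT and both by 0.30 in *Arid1a* KO.

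The variation among the 77 was narrow beside that of other genes. In the *Arid1a* KO response to JSH-23, 74 of the 77 log2 fold changes were within 0.2 of their median, and their SD was 0.11. Their quartiles were 0.30 and 0.45, while those over all genes, many of them of low level, were -0.43 and 0.31. For the 135 other genes in the shortest length quartile and the highest 5% by level, the quartiles were 0.10 and 0.47. For JSH-23 in WT the SD over the 77 was 0.07, and 75 were within 0.2 of the median. The 2 samples of a group differed by a median of 0.0152 to 0.0235 (log2) over the 77 genes, and at most by 0.20, for *Rps21* in WT with JSH-23. The spread behind the test was correspondingly small, with a biological coefficient of variation of 1.61% over all genes. It comes from pairs of samples that may be technical, so the p-values measure only the spread between these samples. With a coefficient of variation of 10% set in its place (0.1), 44 of the 77 still rose with JSH-23 in *Arid1a* KO and 10 were higher in *Arid1a* KO than in WT with JSH-23, while 0 were called in the other 3 comparisons by that test. How many of all genes tested this setting calls was not counted, so these counts stand without a background.

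Gene length and level moved with the same comparisons. The 77 genes are short, with a median length of 795 bases beside 3472 for the other genes tested. Over those other genes the median log2 fold change with JSH-23 in *Arid1a* KO ran from 0.10 in the shortest length quartile to -0.11 in the longest, and that of *Arid1a* KO against WT with JSH-23 from 0.11 to -0.11. In WT the quartiles with JSH-23 differed little, at -0.02 and 0.01. Among the other genes in the highest 5% by level, 135 belonged to the shortest length quartile, and their medians were 0.29 for JSH-23 in *Arid1a* KO, 0.29 between the genotypes under JSH-23 and 0.30 for the interaction, where the 77 had 0.37, 0.30 and 0.24. Their medians were 0.05 for JSH-23 in WT and -0.02 for *Arid1a* KO against WT with vehicle, where the 77 had 0.14 and 0.07. Among the 77 themselves Spearman's rho of length and fold change was between -0.09 and 0.03 in the 5 comparisons. With level, rho was -0.26 for *Arid1a* KO against WT under JSH-23 (Pearson's r -0.32), -0.21 for JSH-23 in *Arid1a* KO (-0.28) and -0.21 for the interaction (-0.27), and 0.01 in the other comparisons. These are descriptions over 77 genes that share libraries. The part of length in the results was not tested.

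**Figure D5:**
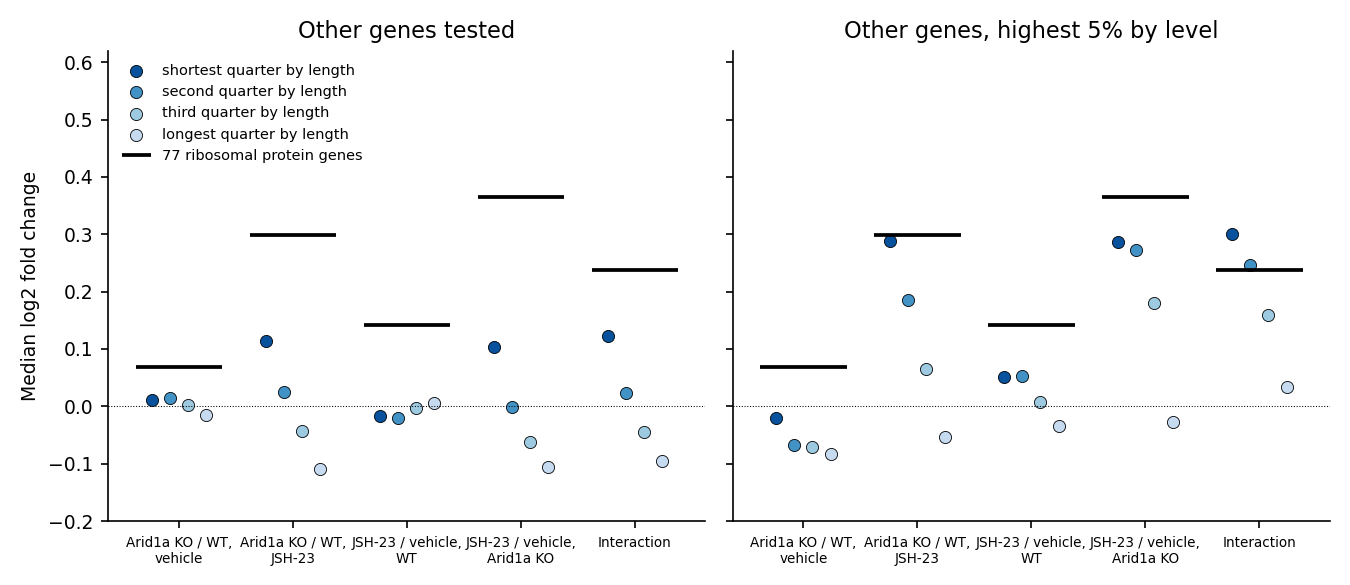
Median log2 fold change of the other genes tested, by length quartile (points, darkest for the shortest), for all of them (left) and for those in the highest 5% by level (right), with the median of the 77 ribosomal protein genes as a black line in each comparison. Abundant short genes had medians of 0.29 for JSH-23 in *Arid1a* KO and 0.30 for the interaction, close to or above those of the 77, and 0.05 for JSH-23 in WT.

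RNA markers of another kind also moved with the groups. *Malat1*, a nuclear long noncoding RNA, was at 2622 and 2604 CPM (here without the correction for composition) in WT with vehicle and 1874 and 1863 with JSH-23, and at 3035 and 2993 in *Arid1a* KO with vehicle and 2250 and 2245 with JSH-23. *Neat1*, another nuclear RNA, was at 1306 and 1309 in WT with vehicle and 416 and 415 with JSH-23, and at 1311 and 1304 in *Arid1a* KO with vehicle and 518 and 531 with JSH-23. Both were lower in every JSH-23 sample than in every vehicle sample of the same genotype. The 100 most abundant genes took 23.7% of counts in *Arid1a* KO with JSH-23 and 21.5% to 21.8% in the other samples. The part of nuclear RNA or of library composition in the results was not tested.

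Of the 7 ribosomal protein genes with other names, *Fau*, *Rps3a1* and *Rack1* among them, 6 rose and 1 fell with JSH-23 in *Arid1a* KO, beside 33.4% and 34.4% of all genes. In WT 3 rose and 3 fell, beside 28.6% and 27.2%. All 7 were higher in *Arid1a* KO than in WT with JSH-23 (median log2 fold change 0.33), beside 23.2% of all genes. *Rps3a1*, a small-subunit gene, rose by 0.10 in WT and 0.50 in *Arid1a* KO, whereas *Fau*, which encodes another small-subunit protein fused to a ubiquitin-like protein, changed by -0.12 and 0.19. Of the 11 pseudogene rows, taken by -ps in the symbol, 7 passed the filter. With JSH-23 in *Arid1a* KO 5 of them rose and 0 fell, beside 33.4% and 34.4% of all genes. At an unadjusted p under 0.05 also 0 of them fell in *Arid1a* KO by edgeR's test. *Rps18-ps4* and *Rpl34-ps1* rose by 0.24 and 0.31 there, beside 0.46 and 0.54 for *Rps18* and *Rpl34*, and *Rpl34-ps1* rose by 0.13 in WT, beside 0.38 for *Rpl34*.

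The other 22 mRNAs and host RNAs with a TOP start moved with JSH-23 much as the 77 did, and matched them in part otherwise. With JSH-23, 21 rose and 1 fell in *Arid1a* KO (median 0.37), beside 33.4% and 34.4% of all genes. In WT 19 rose and 1 fell (median 0.15), beside 28.6% and 27.2%. Between the genotypes under JSH-23, 18 were higher and 0 lower in *Arid1a* KO (0 lower also at an unadjusted p under 0.05 in edgeR's test), beside 23.2% and 23.8%. Their median there was 0.22, where the 77 had 0.30. With vehicle 13 were higher and 8 lower (median 0.08), beside 25.0% and 25.5% of all genes, where 42 and 15 of the 77 were. For the interaction 17 were positive and 1 negative (median 0.20), beside 20.5% and 17.9%. *Pabpc1*, the poly(A)-binding protein, rose by 0.19 with JSH-23 in WT and 0.59 in *Arid1a* KO, and the elongation factor gene *Eef1a1* by 0.14 and 0.33. The fall in both genotypes was that of *Snhg12*, a snoRNA host gene, with -0.17 and -0.75.

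The 78 mitochondrial ribosomal protein genes, which encode the separate ribosome of that organelle, matched the 77 in part. In *Arid1a* KO 46 rose and 4 fell with JSH-23 (median 0.24), beside 33.4% and 34.4% of all genes. Under JSH-23, 44 were higher and 4 lower in *Arid1a* KO than in WT (median 0.22), beside 23.2% and 23.8%. In WT 16 rose and 14 fell with JSH-23 (median 0.01), beside 28.6% and 27.2%. With vehicle 14 were higher and 14 lower in *Arid1a* KO (median -0.03), beside 25.0% and 25.5%. For the interaction, 33 were positive and 1 negative (median 0.22), beside 20.5% and 17.9%.

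Known regulators of ribosomal protein synthesis moved in both directions. Of 13, 3 rose and 7 fell with JSH-23 in *Arid1a* KO (median -0.12), beside 33.4% and 34.4% of all genes, and 4 rose and 4 fell in WT (median -0.01), beside 28.6% and 27.2%. With vehicle 6 were higher and 1 lower in *Arid1a* KO than in WT (median 0.08, beside 25.0% and 25.5% of all genes), and with JSH-23 5 were higher and 4 lower (median 0.02, beside 23.2% and 23.8%). The mouse *Myc* row was at 16.9 ± 0.489 CPM in WT with vehicle, 12.9 ± 0.609 with JSH-23, 55.0 ± 0.509 in *Arid1a* KO with vehicle and 23.3 ± 1.52 with JSH-23 (SD, n = 2). It fell with JSH-23 by 0.39 on the log2 scale in WT (SE 0.0999) and by 1.24 in *Arid1a* KO (SE 0.069). Transcripts of the *MYC* transgene of these cells need not be counted in that row, so it does not show the total MYC level. Its part in the rise of the ribosomal protein genes was not tested. *Larp1*, which encodes the TOP-binding protein, rose by 0.12 with JSH-23 in WT and fell by 0.20 in *Arid1a* KO, and *Mtor* rose by 0.23 and fell by 0.20. A further list held 11 genes for chaperones and importers of ribosomal proteins. With JSH-23 in *Arid1a* KO 5 of them rose and 2 fell (median 0.10), beside 33.4% and 34.4% of all genes. In WT 5 rose and 3 fell (median 0.08), beside 28.6% and 27.2%. *Heatr3*, which encodes an escort of Rpl5 into the nucleus, fell by 1.41 in WT and by 0.96 in *Arid1a* KO.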

How the data were processed

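RNA-seq was measured in 8 samples, 2 in each of 4 groups, assigned from the sample labels. The authors deposited per-sample tables of 39089 genes with raw counts (reads per gene, whole numbers) and TPM, which equals count over length scaled to the same sum in each sample. Per the submitters' processing notes, HISAT2, HTSeq, DESeq2 and mm10 were used, whereas the study's methods name TopHat2 with the best match per read and strand-specific HTSeq-count. Reads of near-identical copies can fall on either row. The authors' series-wide TPM table was not used here, since it repeats the per-sample values. Coordinates are those of the GENCODE annotation for GRCm38, and promoter sequences are from RefSeq (GRCm38.p6).

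Members and lists were chosen with earlier results of these data known. From the counts, filterByExpr kept 13921 genes, TMM factors ran from 0.949 to 1.03, and edgeR 4.0.16 (R 4.3.3) fitted quasi-likelihood models over all 8 samples with a mean per group. A total of 5 comparisons were tested, and genes were called at a Benjamini-Hochberg adjusted p under 0.05, or at 1.5-fold and an unadjusted p under 0.05. The standard error is the log2 fold change over the root of the test's F. The scripts were tested on simulated data. Total counts were 16401581 to 21972231, so that 3 counts were 0.137 to 0.183 CPM, a limit that covers counting error only.

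The genes named are, per comparison, the 3 with the largest positive and the 3 with the most negative log2 fold change among those called, not overlapping between groups and of at least 10 CPM on average (fewer where fewer existed), the 3 highest and 3 lowest by TPM, genes of fixed roles and paralog pairs, and those that failed the limit of 80 counts. Of the genes this takes, 1 is not reported here. *Rps23*, *Rps21*, *Rpl13a*, *Rpl36*, *Rps29*, *Rps15a*, *Rps18* and the examples from the lists were named after their values were seen. Other settings tried were a fit by DESeq2 1.42.0, library size as the single scaling, TMM without the 77 genes, no filter on low counts or one of 10 counts in each of the samples, a replicate block, limma 3.58.1 with TPM on the log2 scale after adding 1 or 0.1, only the groups compared, a set biological coefficient of variation of 0.1, pseudogene rows added to their parents and leaving out each sample. For the share of counts, they were a total without mitochondrial rows, summed TPM and the addition of pseudogene rows. The division of genes into length and level bins was added after the values were seen.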

Additional observations from a re-analysis of the deposited data

Results flagged for a closer look

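The effect of JSH-23 was not the same in the genotypes for 74 of the 77 ribosomal protein genes (adjusted p under 0.05). The test was that of the interaction in edgeR's quasi-likelihood model, and each of the 74 had a larger log2 fold change in *Arid1a* KO. By this test 20.5% of all genes tested were positive and 17.9% negative. With a biological coefficient of variation of 0.1 set in place of the fitted spread, 0 of the 77 passed. Groups of 2 samples allow no test for an outlying sample.

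Among the genes named in the text, the difference (log2) was 0.55 for *Rpl35a*, 0.53 for *Rps27a*, 0.46 for *Rpl11*, 0.42 for *Rps27l* and *Rpl13a*, 0.37 for *Rps26*, 0.36 for *Rps18*, 0.34 for *Rps6*, 0.30 for *Rps21*, 0.29 for *Rps29* and 0.27 for *Rpl36*. It was 0.24 for *Rpl38*, 0.21 for *Rplp1*, 0.20 for *Rpl27*, *Rpl3* and *Rpl10*, and 0.19 for *Rpl5* and *Rps23*. It was 0.18 for *Rplp2*, *Rps14* and *Rpl39*, 0.17 for *Rplp0*, 0.15 for *Rps4x*, 0.14 for *Rpl22*, 0.13 for *Rpsa* and 0.12 for *Rpl23a* and *Rps15a*. On the log2(TPM + 1) scale 9 of the 77 had a negative difference and 25 a positive one at an adjusted p under 0.05 in limma. The median over all genes on that scale was -0.17. On the count scale the other 135 abundant short genes had a median difference of 0.30.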

How the results depend on the processing

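No alternative turned the sign of a median over the 77 genes. DESeq2, TMM without the 77 genes, only the groups compared and pseudogene rows added to their parents left every count of calls within 1.5 times. Under these settings every median also stayed within the spread between replicates. The pseudogene rows added were only the 11 with -ps in the symbol, so copies under other names were not covered. Replicate numbers did not pair the samples (correlations of their differences between -0.02 and 0.03), and a replicate block changed the counts little, to 43 higher and 16 lower (*Arid1a* KO against WT with vehicle), 77 and 0 (with JSH-23), 71 and 1 (JSH-23 in WT), 76 and 0 (JSH-23 in *Arid1a* KO) and 74 and 0 (interaction).

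With library size alone the medians were 0.10, 0.22, 0.13, 0.25 and 0.13 in the same order, and 1 gene fell with JSH-23 in *Arid1a* KO, where the median over all genes was -0.13 and the 77 stood 0.39 above it. With at least 10 counts in every sample the medians were 0.0809, 0.13 (with 2 genes lower) and 0.34 for the vehicle, WT and *Arid1a* KO responses, and without a filter the WT median was 0.15. With limma on log2(TPM + 1) the medians were 0.11 (2 genes lower), 0.10 (2 lower), 0.13 (1 lower) and 0.0402 (25 positive, 9 negative) for the genotypes under JSH-23, JSH-23 in WT, JSH-23 in *Arid1a* KO and the interaction. On log2(TPM + 0.1) they were the same, with 3 genes lower in the first. On the former scale the 77 stood 0.27, 0.14, 0.33 and 0.21 above the median over all genes. With a biological coefficient of variation of 0.1, 0 genes were called in either direction with vehicle and in WT, 10 were higher in *Arid1a* KO with JSH-23, 44 rose with JSH-23 in *Arid1a* KO and 0 passed for the interaction. The share of all genes called at that setting was not counted. The cause of these changes in medians and counts was not tested. As shares of summed TPM the ratios were 1.05, 1.07, 1.07 and 1.09 where those of counts were 1.07, 1.16, 1.09 and 1.19.

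Single genes changed sign in 37 of 2256 values. With library size alone these were *Rpl3* with vehicle (0.0066), *Rpl22* with JSH-23 in *Arid1a* KO (-0.0747) and *Rps27* in the interaction (-0.0476). On both TPM scales they were, for the genotypes under JSH-23, *Rps6* (-0.0657), *Rpl10* (-0.0463) and *Rpl3* (-0.0101), for JSH-23 in WT, *Rpl38* (-0.0195), and for JSH-23 in *Arid1a* KO, *Rpl22* (-0.20) and *Rpsa* (-0.0125). In the interaction they were *Rps27* (-0.14), *Rpl23a* (-0.0776), *Rpsa* (-0.0718), *Rpl22* (-0.0559, or -0.056 after adding 0.1), *Rps4x* (-0.0515), *Rpl34* (-0.0409, or -0.0413 after adding 0.1), *Rplp0* (-0.0235), *Rplp2* (-0.0211), *Rpl39* (-0.0188), *Rps14* (-0.0149) and *Rpl5* (-0.0104). Another 135 values lost the call, 92 of them with the set coefficient of variation, and 22 gained it.

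Leaving out a sample gave 38 to 43 higher and 13 to 18 lower with vehicle (median 0.0511 to 0.0673), 77 and 0 with JSH-23 (0.29 to 0.31), 65 to 71 and 1 for JSH-23 in WT (0.14 to 0.15), 76 to 77 and 0 for JSH-23 in *Arid1a* KO (0.37 to 0.40), and 74 to 75 and 0 for the interaction (0.23 to 0.27). The ratios of shares ran from 1.06 to 1.07, 1.16 to 1.16, 1.09 to 1.09 and 1.18 to 1.19. A lone sample left in a group was assumed to vary like the others. Counting depth limited *Rpl29*, *Rps27l* and *Rpl34* most.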
